A study of Mus musculus with 4 samples.

Results

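The light chain variable segments of mouse splenic B cells were described in 4 RNA-seq libraries, taking as members every gene of the authors' gene count table whose name begins with Igkv (kappa) or Iglv (lambda). The rule found 107 members among 41342 named genes, 104 of them kappa and 3 lambda. The libraries came from 2 genotypes of the 129 strain that differ in the 3' regulatory region (3'RR) of the IgH locus, a group of enhancers on chromosome 12 of which part form a palindrome, away from the light chain loci. ΔleftPAL mice lack a fragment holding the enhancers hs3a and hs1,2 and the inverted repeats (IRIS) between them. ΔIRIS mice carry the same replacement with an inverted hs3a and hs1,2 put back, so that they keep every core enhancer and lack the repeats and the palindrome. Both lines were made by targeting of 129-derived embryonic stem cells, the chimeras were mated with C57Bl/6 animals, and the selection cassette was removed by cre. For each genotype 1 library held resting cells, freshly isolated by density gradient and CD43 depletion, and 1 held cells of the same kind kept in culture with lipopolysaccharide (LPS, 5 μg per ml), a bacterial product that activates B cells, over 48 h and separated again on a gradient. Each library was a pool over animals, so the values have no replicate check, every difference is one between 2 libraries, and culture and LPS cannot be told apart. The animals of the RNA-seq experiments were males aged 8 to 12 weeks, and the wt libraries were not analysed here.

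A light chain gene is assembled in the developing B cell when the RAG recombinase joins 1 variable (V) segment to 1 short joining (J) segment, and the transcript is then spliced to a constant exon. Kappa V segments lie in a long array upstream of the Jκ segments and the constant gene Igkc, some in the orientation of Jκ and some in the opposite one, which are joined by inversion instead of deletion. The lambda locus of laboratory mice holds few V segments, and most mature B cells carry a kappa chain. In a mixed population, counts on a V segment therefore report both how many cells use it and how much light chain RNA those cells make, and in bulk RNA fewer cells of a kind and less RNA per cell cannot be told apart.

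The kappa members span 3148.54 kb of chromosome 6 of the GRCm38 (mm10) assembly, from 67555636 to 70704177, and fall into 19 families by the number after Igkv in their names. Of them, 40 lie on the strand of the Jκ segments and 64 on the opposite strand. The 3 lambda members lie on the minus strand of chromosome 16, Iglv1 from 19085017 to 19085460, Iglv3 from 19241211 to 19241679 and Iglv2 from 19260401 to 19260844. Each V segment's last bases, from the codon of the conserved cysteine on, encode most of the third hypervariable loop, which meets the antigen. The ends below are those of Iglv1 and its close relative Iglv2, of the leading kappa pair Igkv1-117 and Igkv1-110, of Igkv1-133, on which the count tables differed, and of the segments close to Jκ that the genotype comparison turns on, read from GENCODE M21 transcripts of the C57BL/6J reference, with the bases from the cysteine codon to the end in capitals.
Iglv1: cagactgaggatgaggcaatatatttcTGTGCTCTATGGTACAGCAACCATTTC
Iglv2: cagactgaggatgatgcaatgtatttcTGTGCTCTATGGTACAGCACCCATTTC
Igkv1-117: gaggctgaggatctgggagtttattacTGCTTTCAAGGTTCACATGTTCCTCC
Igkv1-110: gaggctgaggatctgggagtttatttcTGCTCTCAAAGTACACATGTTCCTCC
Igkv1-133: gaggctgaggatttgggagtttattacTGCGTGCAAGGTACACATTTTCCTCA
Igkv6-17: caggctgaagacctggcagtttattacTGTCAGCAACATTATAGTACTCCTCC
Igkv6-15: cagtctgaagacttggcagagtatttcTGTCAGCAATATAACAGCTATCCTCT
Igkv6-14: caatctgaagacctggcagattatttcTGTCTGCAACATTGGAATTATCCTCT
Igkv3-12: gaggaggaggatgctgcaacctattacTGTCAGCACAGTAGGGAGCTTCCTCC
Igkv3-10: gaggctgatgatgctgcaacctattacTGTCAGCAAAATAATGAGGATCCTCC
Igkv3-5: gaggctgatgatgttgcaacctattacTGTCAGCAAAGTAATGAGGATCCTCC
Igkv3-4: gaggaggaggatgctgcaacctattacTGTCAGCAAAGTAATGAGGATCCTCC
Igkv3-2: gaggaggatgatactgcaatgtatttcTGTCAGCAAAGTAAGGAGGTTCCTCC
Such an end was found in 102 members and took 92 distinct forms, of which 7 were shared by 17 segments. Igkv3-4 and Igkv3-5, for instance, have the same capitals. Over their whole length, 34 pairs formed from 42 segments share a run of at least 100 identical bases, among them Igkv3-10 with Igkv3-5, Igkv3-12 with Igkv3-7, Igkv6-14 with Igkv6-13, Igkv1-117 with Igkv1-110 and Iglv1 with Iglv2. The gene counts assign a fragment that maps to several places to its primary alignment alone, so counts could have been split within such pairs, and each segment was also read with its relatives added and in the authors' kallisto estimated counts.

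Every set of 4 values below gives resting and then LPS-activated ΔleftPAL cells, followed by ΔIRIS cells in these 2 states. In this order the libraries held 23615496, 27777790, 28707002 and 29776108 counts on named genes. Light chain V segments held 28748, 101186, 31253 and 69320 of them. A share of V counts that 3 counts would give, taken as the floor, was 0.0104%, 0.00296%, 0.00960% and 0.00433%. Markers of B cells (6 genes) summed to 3855, 2303, 3269 and 2464 CPM, and those of T cells (5 genes) to 20.9, 0.223, 25.9 and 0.0341. Those of myeloid cells (4 genes) summed to 279, 6.79, 384 and 16.0 CPM. Erythroid genes (3 genes) summed to 34110, 50.7, 23703 and 107 CPM, so the resting libraries held far more RNA of red cells than the cultured ones. CPM are counts scaled to a common library size with edgeR's TMM factors. All intervals are 95% exact Clopper-Pearson intervals, which cover counting error only.

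The summed level of the light chain V segments was higher after LPS in both genotypes, by more in ΔleftPAL cells. It was 1177 CPM at rest and 3756 after LPS in ΔleftPAL cells, a 3.19-fold difference (log2 1.67, interval 1.66 to 1.69). In ΔIRIS cells it was 1075 and 2365 CPM, a 2.20-fold difference (log2 1.14, interval 1.12 to 1.16). The level was thus close between genotypes at rest (log2 of ΔIRIS over ΔleftPAL -0.13, interval -0.15 to -0.11) and lower in ΔIRIS cells after LPS (log2 -0.67, interval -0.68 to -0.65). The direction of the LPS difference depends on what the counts are scaled to: the glycolytic gene Gapdh was itself 6.26-fold and 7.91-fold higher after LPS, and relative to Gapdh counts the log2 ratios were -0.97 and -1.85. Plasmablast markers (Igj, Sdc1, Prdm1, Xbp1 and Irf4) summed to 552, 1443, 848 and 992 CPM in the 4 libraries, highest in the library with the highest V level, and their part in the result was not tested.

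Single segments followed the sum. Members that averaged at least 50 counts in the 4 libraries numbered 81, of which 80 had a higher CPM after LPS in ΔleftPAL cells and 80 in ΔIRIS cells. A CPM at least 2-fold higher was found for 73 of the 81 in ΔleftPAL cells, where 20.1% of all genes were as far apart in this direction, and for 43 of the 81 in ΔIRIS cells, against 21.6% of all genes. Between the LPS libraries, 76 of 81 segments had a lower CPM in ΔIRIS cells and 24 a CPM at least 2-fold lower, against 1.41% of all genes, while 1 (Igkv1-133) was at least 2-fold higher, against 0.567%. At rest 3 segments were at least 2-fold lower in ΔIRIS cells, against 1.02% of all genes, and 0 at least 2-fold higher, against 1.83%. For the counts by direction without the 2-fold cut, no share of all genes was computed.

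**Figure D1:**
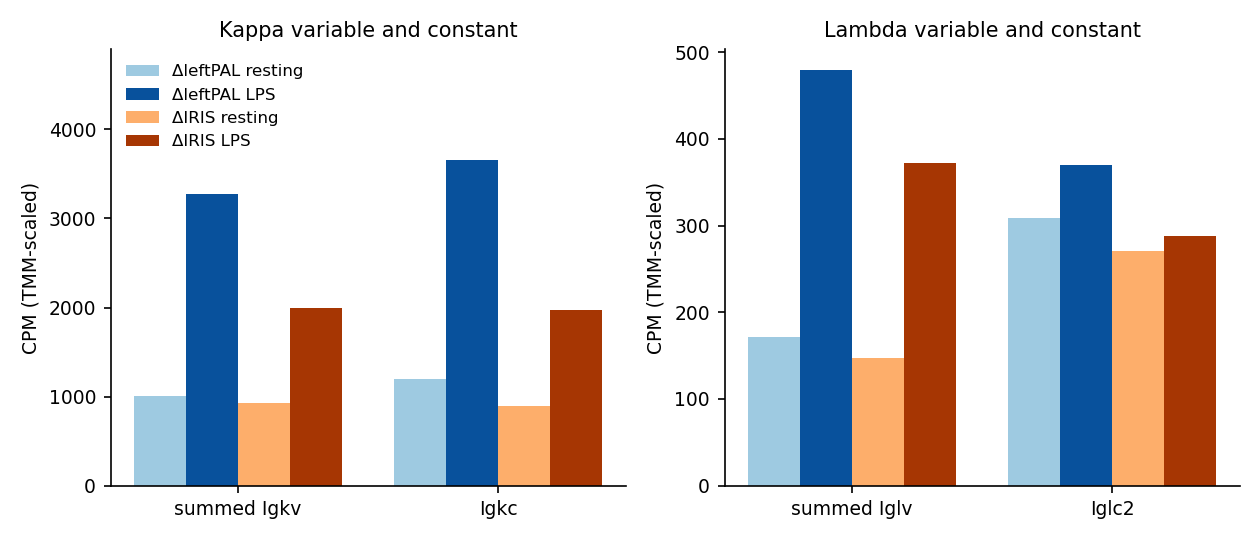
Summed level (TMM-scaled CPM, linear axes from 0) of kappa V segments beside Igkc and of lambda V segments beside Iglc2 in each of the 4 libraries, 1 bar per library and gene group and no replicates. Kappa V and Igkc are highest in LPS-activated ΔleftPAL cells, whereas Iglc2 stays between 271 and 370 CPM. Iglv1, the most used lambda segment, lies downstream of Iglc2, so lambda V and Iglc2 are not a matched pair.

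The 2 constant genes read here differed in how they followed the V segments. Igkc, the single kappa constant gene, had 29214, 98525, 26039 and 57662 counts, and kappa V counts per Igkc count were 0.841, 0.896, 1.04 and 1.01. The ratio lay closer between the 2 states of a genotype than between genotypes. Iglc2, the lambda constant gene in the table, had 7534, 9970, 7865 and 8435 counts, and lambda V counts per Iglc2 count were 0.556, 1.30, 0.544 and 1.30. Lambda V segments were thus 2.80-fold and 2.53-fold higher in CPM after LPS while Iglc2 was 1.20-fold and 1.06-fold higher. Iglc2 lies between the lambda V segments, and on the minus strand Iglv1, the most used of them, lies downstream of it. Iglc2 is therefore not the constant gene of Iglv1, and lambda V counts per Iglc2 count do not compare matched pairs. Iglc2 also has close copies whose counts were not analysed here, so its own reads are uncertain. The 5 Jκ segments together had 1644, 2641, 2180 and 2183 counts, a small number beside kappa V, and a fragment that overlapped both a V and a J segment was not counted in the table. The heavy chain V segments, 114 genes used as the closest comparison, summed to 535, 1909, 503 and 1379 CPM, a log2 difference of 1.84 and 1.46 after LPS in ΔleftPAL and ΔIRIS cells.

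A list of 7 genes of recombination and of the surrogate light chain was low in these mature cells apart from Vpreb3. Rag1, the catalytic RAG subunit, had 34, 4, 112 and 9 counts, and was lower after LPS in both genotypes. Its partner Rag2 had at most 1 count in a library, Dntt, the polymerase that adds bases at the joints, at most 6, and the surrogate light chain genes Igll1, Vpreb1 and Vpreb2 at most 4. Vpreb3, which stays expressed later in B cell life than those, had 715, 210, 803 and 270 counts.

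Usage, meaning each segment's share of all light chain V counts in a library, was spread over many segments in all libraries. The inverse Simpson index, which gives the number of equally used segments that would be as uneven, was 37.1, 34.1, 36.0 and 27.9. The 12 most used segments held 44.1%, 46.3%, 45.2% and 49.1% of the V counts, and 50% of them lay in 15, 14, 14 and 12 segments. Usage was thus most concentrated in LPS-activated ΔIRIS cells, as it was in the estimated counts, where the index was 30.0, 29.1, 30.3 and 22.3. At the other end, 26 members fell below the mean of 50 counts, with no count above 92, 5 had at most 3 counts in every library and 2 had none. Of the members, 8 are annotated as pseudogenes, and these held between 0.0761% and 0.269% of the V counts.

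Iglv1, which with its relatives supplies the lambda chains, was the most used segment in each library. It held 8.51% (8.19 to 8.84), 8.54% (8.37 to 8.71), 8.04% (7.74 to 8.35) and 11.1% (10.8 to 11.3) of the V counts. The LPS-activated ΔIRIS library stood above the other 3, which lay between 8.04% and 8.54%. Iglv3 held 3.99%, 3.07%, 3.23% and 2.78%, and Iglv2 held 2.07%, 1.16%, 2.41% and 1.93%. Both were lower after LPS in each genotype, unlike Iglv1, so that Iglv1 counts per Iglv2 count were 4.10, 7.36, 3.34 and 5.74. Summed, since counts could have been split between them, Iglv1 and Iglv2 had log2 ratios of LPS over resting of -0.13 in ΔleftPAL cells and 0.31 in ΔIRIS cells. The 3 lambda segments together made up 14.6% (14.2 to 15.0), 12.8% (12.6 to 13.0), 13.7% (13.3 to 14.1) and 15.8% (15.5 to 16.0) of the V counts, and the estimated counts gave higher values in the same order of libraries, at 19.2%, 15.6%, 17.4% and 19.3%.

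Among kappa segments, Igkv1-117 and Igkv1-110 were the most used in all libraries except resting ΔIRIS cells. Both belong to family 1, lie on the Jκ strand 2600.74 and 2451.3 kb from Jκ1 and share a run of 142 bases. Igkv1-117 held 5.45%, 6.52%, 6.65% and 8.02%, and was higher after LPS in both genotypes. Igkv1-110 held 4.69%, 6.76%, 4.50% and 6.80%, with log2 ratios of LPS over resting of 0.53 (0.44 to 0.61) and 0.59 (0.51 to 0.68). For this segment the genotypes lay within counting error of each other in both states, at -0.06 (-0.17 to 0.05) and 0.01 (-0.05 to 0.06). Summed with Igkv1-117, the ratios of ΔIRIS over ΔleftPAL were 0.14 (0.07 to 0.21) and 0.16 (0.12 to 0.19). Those of LPS over resting were then 0.39 and 0.41. Igkv10-96 was lower after LPS in both genotypes, at 4.42%, 3.20%, 4.89% and 4.18%, and overtook Igkv1-110 in resting ΔIRIS cells. Per base of the counted segment the most used members kept this order of their mean shares.

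The remaining leading segments showed each kind of pattern. Igkv1-135 was level across the libraries, at 3.48%, 3.66%, 3.76% and 3.56%, whereas Igkv12-44, at 2.02%, 2.53%, 2.48% and 2.23%, was higher after LPS in ΔleftPAL cells and lower in ΔIRIS cells. Igkv5-43 was higher after LPS in both genotypes, at 2.52%, 3.49%, 2.21% and 2.80%, and Igkv19-93, the sole member of its family, was lower, at 2.97%, 1.80%, 2.54% and 2.01%. Igkv2-137, the segment farthest from Jκ1, held 1.81%, 1.80%, 2.26% and 2.88% and was higher in ΔIRIS cells in both states. Igkv6-15 held 2.51%, 3.02%, 1.51% and 1.33% and was lower in ΔIRIS cells in both. Igkv12-46 held 1.76%, 1.90%, 3.16% and 1.49%, so that resting ΔIRIS cells alone stood high.

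**Figure D2:**
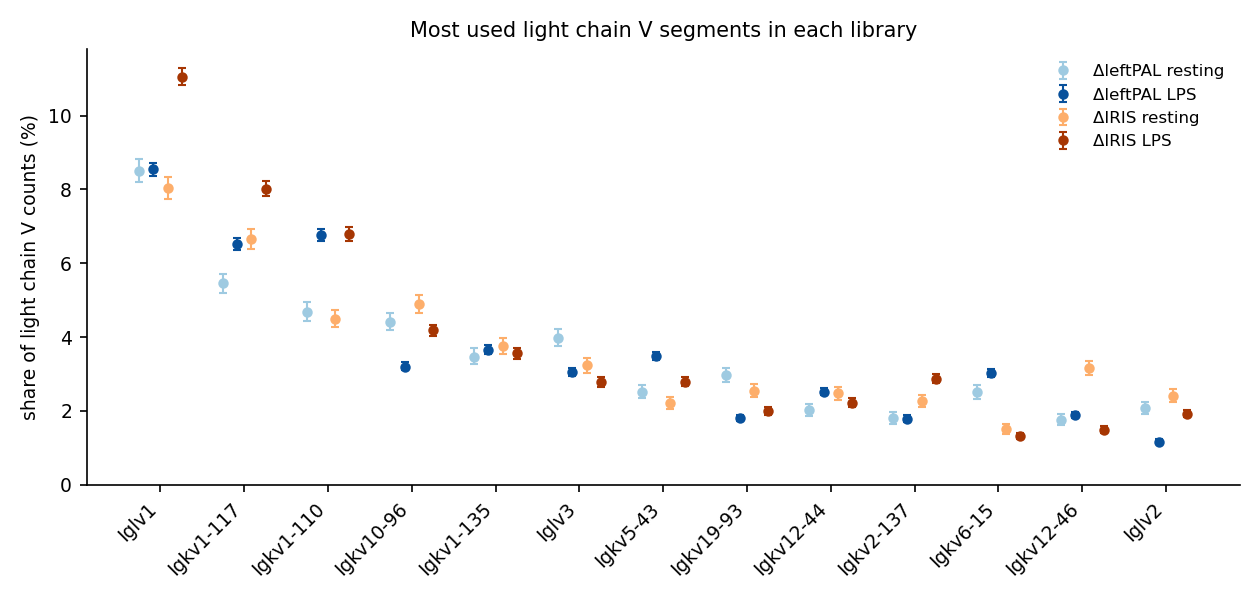
Share of all light chain V counts (percent) of the 12 segments with the highest mean share and of Iglv2 in each of the 4 libraries; points are single libraries and bars are 95% exact Clopper-Pearson intervals of counting error. Iglv1 in LPS-activated ΔIRIS cells lies at 11.1%, Igkv1-110 is higher and Igkv19-93 lower in both LPS libraries, and Igkv6-15 is lower in both ΔIRIS libraries.

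The first comparison asked how usage differed between resting and LPS-activated cells. In ΔleftPAL cells 1 of 81 segments was at least 2-fold apart in share and in ΔIRIS cells 4, each of them lower after LPS. Of all genes 37.2% (19.0% higher, 18.1% lower) and 40.6% (21.7% higher, 18.9% lower) were as far apart in their share of named counts. The measures are unlike, since a share of V counts leaves out the higher level that V segments had in common after LPS. In CPM 73 and 43 of the 81 segments were at least 2-fold apart. Of 72 heavy chain V segments 26.4% and 5.56% were as far apart in their share of heavy chain V counts. The segment in ΔleftPAL cells was Igkv1-133, at -2.11 in the gene counts and 0.079 in the estimated counts, in which Igkv3-7 (1.55) and Igkv4-58 (-1.07) were the segments at least 2-fold apart. Smaller differences were also counted, by whether the counting interval held 0. In ΔleftPAL cells the interval lay above 0 for 20 segments and below 0 for 26, and in ΔIRIS cells for 17 and 29. The share of all genes by this rule was not computed, so nothing is read from these counts. The usage distance, the summed absolute differences in share divided by 2, was 10.8% and 12.2%, against 19.7% and 10.4% for heavy chain V segments.

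The segments that were higher after LPS in both genotypes included members of family 8. Igkv8-30 held 1.22%, 2.24%, 1.39% and 2.10%, with log2 ratios of 0.88 (0.72 to 1.05) and 0.60 (0.44 to 0.75), and was among the 5 largest differences of this direction in each genotype. Igkv8-19 held 0.657%, 1.08%, 0.429% and 0.638%, and Igkv5-45, a relative of Igkv5-43, 0.240%, 0.402%, 0.266% and 0.385%. Each was higher in both LPS libraries than in either resting one, apart from Igkv8-19, whose share in LPS-activated ΔIRIS cells lay below that in resting ΔleftPAL cells. Over its 9 segments family 8 made up 8.50%, 9.92%, 8.11% and 10.4% of kappa V counts, and family 1 with 11 segments 18.1%, 20.6%, 20.3% and 25.1%. Igkv4-57-1 was among the 5 in ΔleftPAL cells alone, at 0.473%, 0.798%, 0.454% and 0.457%.

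Other segments were lower after LPS in both genotypes. Igkv5-39 held 1.94%, 1.12%, 2.38% and 0.860%, with log2 ratios of -0.80 (-0.95 to -0.65) and -1.47 (-1.63 to -1.31). In ΔIRIS cells its counts went from 743 to 596 while the V total more than doubled. Igkv12-89 held 0.393%, 0.237%, 0.547% and 0.303%, Igkv17-121 1.53%, 1.07%, 1.79% and 1.06%, and Igkv4-86 0.372%, 0.201%, 0.378% and 0.265%. All 3 were lower in each LPS library than in either resting library. Igkv4-90 was at least 2-fold lower in ΔIRIS cells, where it had 51 and 52 counts, few enough that the interval ran from -1.71 to -0.54. The second of 4 equal blocks of the array, from Igkv1-99 to Igkv4-68, made up 18.2%, 13.7%, 17.5% and 15.3% of kappa V counts, with 16 of its 20 tested segments lower after LPS in ΔleftPAL cells and 15 in ΔIRIS cells. Over all members 44 and 45 of 81 were lower.

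Igkv12-46 differed between the genotypes in this comparison. Its counts were 505, 1921, 988 and 1035, so that its share was level after LPS in ΔleftPAL cells (log2 0.11, interval -0.03 to 0.26) and lower in ΔIRIS cells (log2 -1.08, interval -1.21 to -0.95). The estimated counts gave -1.06 for the second value. Igkv3-1, the segment next to Jκ, was higher in ΔIRIS cells by 0.62 (0.27 to 0.98), but by 0.0062 in the estimated counts.

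For the 81 segments, the log2 differences after LPS in the 2 genotypes, which share no library, had a Pearson's r of 0.34 and a Spearman's rho of 0.41, and 54 had the same sign (23 higher and 31 lower in both). These values describe segments of the same array that share a total in each library and overlap in sequence. They were not computed for all genes or for heavy chain V segments.

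**Figure D3:**
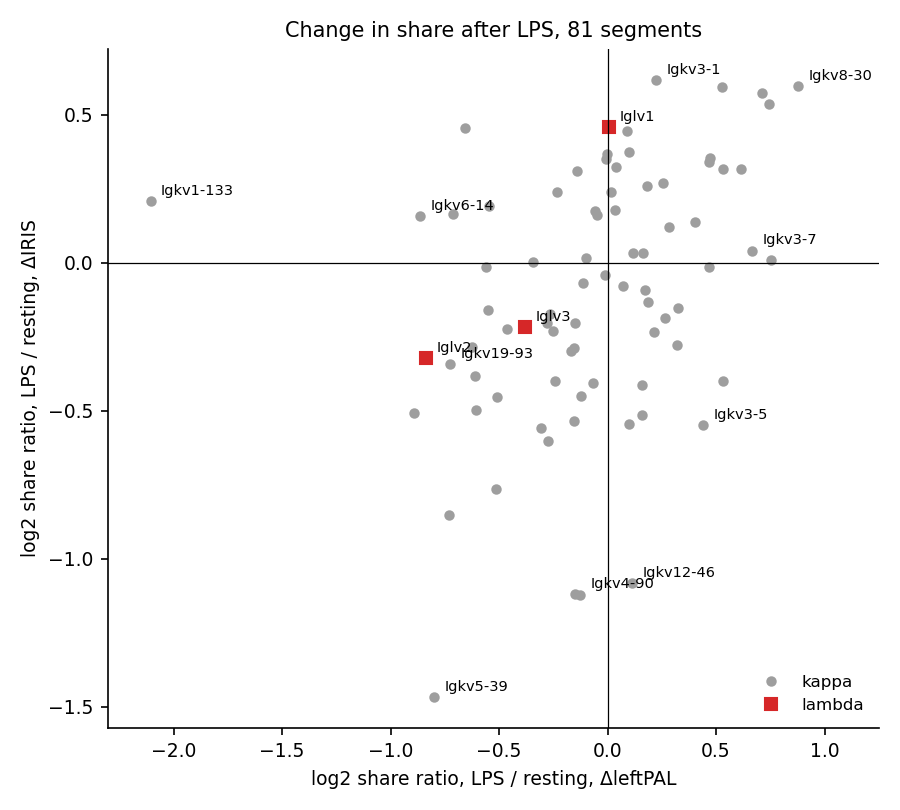
Log2 ratio of the share of light chain V counts in LPS-activated over resting cells, in ΔleftPAL cells (x axis) and in ΔIRIS cells (y axis), with 1 point for each of 81 segments (kappa grey circles, lambda red squares). Igkv8-30 lies high on both axes and Igkv5-39 low on both, and Igkv1-133 is the point farthest to the left, at -2.11.

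The second comparison asked how usage differed between ΔIRIS and ΔleftPAL cells. At rest 3 of 81 segments were at least 2-fold apart in share, all lower in ΔIRIS cells, where 3.61% of all genes (2.17% higher, 1.44% lower) and 0% of 72 heavy chain V segments were as far apart. After LPS 9 were, 2 higher and 7 lower in ΔIRIS cells, against 3.81% of all genes (1.13% higher, 2.68% lower) and 8.33% of heavy chain V segments. The 2 higher segments were Igkv1-133 and Igkv6-14, whose values are uncertain, as given below, and with similar segments merged 5 of 62 were at least 2-fold apart, 1 higher and 4 lower. The interval lay above 0 for 20 segments and below 0 for 19 at rest, and above 0 for 26 and below 0 for 31 after LPS. As before, these counts have no share of all genes beside them, and nothing is read from them. The quartiles of the 81 log2 ratios were -0.26 and 0.21 at rest and -0.40 and 0.33 after LPS. The usage distance was 9.58% and 13.3%, beside 7.09% and 17.6% for heavy chain V segments. The genotype differences at rest and after LPS, which again share no library, had a Pearson's r of 0.64 and a Spearman's rho of 0.49. Of the 81 segments, 52 had the same sign (25 higher and 27 lower in ΔIRIS cells). Pearson's r includes Igkv1-133, at 0.89 and 3.21, whose values are uncertain. The same values were not computed for all genes or for heavy chain V segments. The paper's methods describe splenocytes of each genotype's mice before and after culture, so the 2 libraries of a genotype may share animals. The genotype differences in the 2 states may then not be independent. Sums of B cell subset markers differed between the genotypes as well, apart from the follicular sum after LPS (log2 -0.019). Marginal zone markers (4 genes) summed to 916, 217, 602 and 114 CPM, and follicular markers (3 genes) to 863, 325, 762 and 321. Markers of B1 cells (3 genes) summed to 25.8, 184, 53.9 and 245, and germinal centre markers (5 genes) to 37.7, 85.7, 10.8 and 109. In this order of lists, 1, 1, 1 and 0 genes were higher in ΔIRIS cells at rest, and 0, 1, 3 and 2 after LPS. The B1 sums rested mostly on Bhlhe41 at rest (20.1 and 50.5 CPM) and on Zbtb32 after LPS (162 and 217). Cd5 had 3.97, 0.297, 2.34 and 0.307 CPM. Plasmablast markers, given above, summed higher in ΔIRIS cells at rest and lower after LPS. Within that list Irf4 had 285, 458, 604 and 392 CPM and Igj, the joining chain of secreted antibody, 188, 501, 155 and 283, so the higher sum at rest lay mostly in Irf4 while Igj was lower. The part of these differences in usage was not tested.

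The segments with the largest lower share in ΔIRIS cells lay mostly close to Jκ. Igkv3-2, 23.495 kb from Jκ1 (chromosome 6, 70698468 to 70699067), had 443, 1262, 182 and 274 counts, or 1.54%, 1.25%, 0.582% and 0.395% of V counts. Both ΔIRIS libraries lay below both ΔleftPAL libraries, with log2 ratios of -1.40 (-1.66 to -1.15) at rest and -1.66 (-1.85 to -1.47) after LPS. Igkv3-4, 50.185 kb from Jκ1 (70671789 to 70672377), had 378, 1486, 204 and 340 counts, with log2 ratios of -1.01 (-1.26 to -0.76) and -1.58 (-1.76 to -1.41). At rest the difference was at the edge of 2-fold, and the estimated counts put it just under, at -0.997.

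The next members of family 3 followed. Igkv3-5, whose capitals above are those of Igkv3-4, had 230, 1098, 198 and 300 counts, with log2 ratios of -0.34 (-0.62 to -0.06) at rest and -1.33 (-1.52 to -1.14) after LPS. Igkv3-10 had 161, 633, 103 and 160 counts, with -0.76 (-1.14 to -0.40) and -1.44 (-1.70 to -1.19). Summed with each other, since they share a run of 159 bases, these 2 gave -0.50 and -1.37. Within family 6, the log2 ratios of Igkv6-15 (315.57 kb away; 721, 3053, 472 and 920 counts) were -0.73 (-0.90 to -0.56) and -1.18 (-1.29 to -1.08), and those of Igkv6-17 (350.569 kb away; 423, 1420, 287 and 480 counts) were -0.68 (-0.90 to -0.46) and -1.02 (-1.17 to -0.87). Igkv6-17 shares a run of 152 bases with Igkv6-25, and their sum gave -0.26 and -0.63. In each of these 6 segments the 2 ΔIRIS libraries lay below the 2 ΔleftPAL libraries in share, and the estimated counts gave the same direction.

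Proximity to Jκ was not shared by all such segments, nor was the direction shared by all near ones. Igkv4-70, 1454.15 kb away, had 141, 441, 61 and 110 counts, with log2 ratios of -1.33 (-1.79 to -0.89) and -1.46 (-1.77 to -1.15). It is one of 12 segments of family 4 that runs of identical bases link to each other, and summed over them the ratios were -0.23 and -0.22. In the estimated counts Igkv4-70 alone gave -1.26 and -1.41. Among the neighbours of the low segments, Igkv3-12 had 327, 1105, 514 and 1287 counts, with 0.53 (0.33 to 0.74) at rest and 0.77 (0.65 to 0.88) after LPS, or 0.49 and 0.44 when summed with Igkv3-7. Igkv6-14 had 133, 257, 184 and 455 counts, with 0.35 (0.02 to 0.68) and 1.37 (1.15 to 1.60), and summed with Igkv6-13 the ratios were 0.28 and 0.84. Both were therefore higher in ΔIRIS cells in the gene counts, while in the estimated counts the ratios were 0.23 and -0.39 for Igkv3-12 and 0.44 and 0.34 for Igkv6-14.

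The kappa array was divided into 4 blocks of 26 segments by position. This comparison was not among the planned results. The block next to Jκ holds the low segments of families 3 and 6 named above, so its values are not separate support for them. The block next to Jκ, the segments from Igkv8-30 to Igkv3-1, made up 25.1%, 26.9%, 21.4% and 23.2% of kappa V counts. It was lower in ΔIRIS cells at rest (log2 -0.23, interval -0.28 to -0.18) and after LPS (log2 -0.21, interval -0.24 to -0.18), with 13 of its 21 tested segments lower in each state and 11 in both, beside 40 and 43 of all 81 and 27 in both. Within it, Igkv3-2, Igkv3-4, Igkv3-5, Igkv3-10, Igkv6-15 and Igkv6-17, a set put together after their values were seen, held 9.59%, 10.1%, 5.36% and 4.24% of kappa V counts. The other 20 segments of the block held 15.5%, 16.8%, 16.0% and 19.0%, and 13.0%, 15.4%, 13.2% and 15.0% in the estimated counts. Since the 6 were chosen for being lower in ΔIRIS cells, nothing is read from this remainder. Without families 3 and 6 the difference of the block came to -0.14 at rest and -0.011 after LPS. These families were likewise left out after their values were seen, so nothing is read from the smaller difference. In the estimated counts the whole block, with both families kept, gave -0.30 and -0.44, with the 6 segments at 9.25%, 9.96%, 4.83% and 3.67%.

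The block farthest from Jκ was higher in ΔIRIS cells. This first block, from Igkv2-137 to Igkv14-100, made up 35.3%, 36.5%, 38.8% and 41.9% of kappa V counts, with log2 ratios of ΔIRIS over ΔleftPAL of 0.14 (0.09 to 0.18) and 0.20 (0.18 to 0.23). At rest 15 of its 20 tested segments were higher in ΔIRIS cells, and after LPS 10 were, beside 41 and 38 of all 81. Family 3 with 9 segments made up 7.16%, 7.58%, 5.51% and 5.35%, and family 6 with 9 segments 11.3%, 11.1%, 9.06% and 8.55%. Both were lower in ΔIRIS cells in each state, whereas family 1 was higher by 0.17 and 0.29. Family 1 and the first block both hold Igkv1-133, whose gene counts of 157 and 992 in the LPS libraries are uncertain, as given below. Family 4, the largest with 27 segments, was closer, at 12.6%, 12.3%, 11.3% and 11.3%, and family 10 with 3 segments, which Igkv10-96 leads, held 6.74%, 4.70%, 7.12% and 6.38%, lowest in LPS-activated ΔleftPAL cells. Igkv4-50, in the third block, was among the 5 segments with the largest higher share in ΔIRIS cells at rest, with 91, 364, 138 and 279 counts and a log2 ratio of 0.48 (0.09 to 0.88). Family 12 with 7 segments held 6.55%, 7.06%, 8.50% and 5.89%, a pattern that follows Igkv12-46. Segments on the strand of Jκ held 46.0%, 47.2%, 47.1% and 49.3% of kappa V counts. Their log2 ratios of ΔIRIS over ΔleftPAL were 0.033 (-0.003 to 0.070) at rest and 0.063 (0.042 to 0.085) after LPS. Of the 32 tested on this strand, 21 were higher in ΔIRIS cells at rest and 15 after LPS. On the opposite strand 19 and 21 of 46 were.

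**Figure D4:**
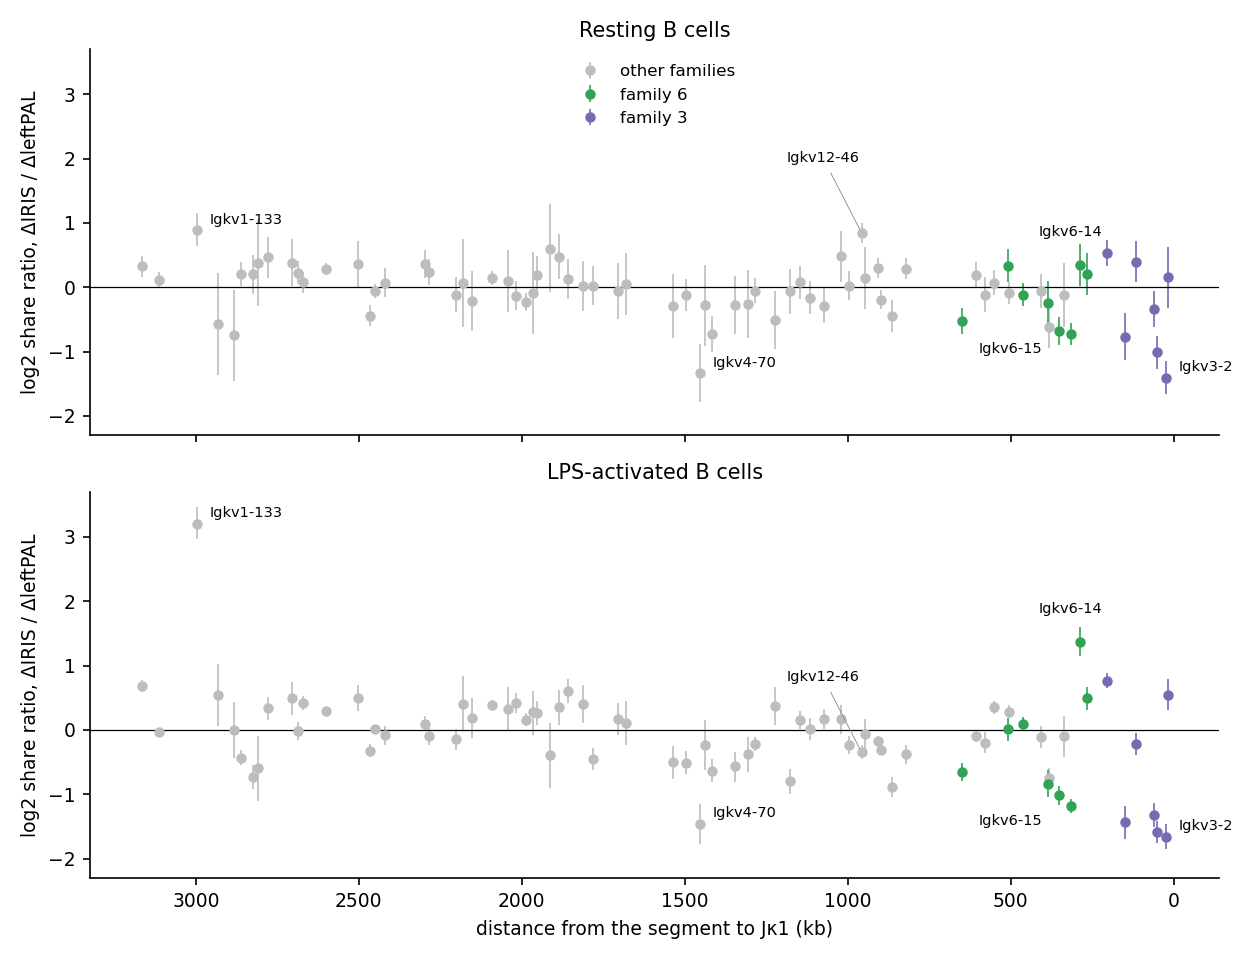
Log2 ratio of the share of light chain V counts in ΔIRIS over ΔleftPAL cells against the distance of the segment from Jκ1 (kb), at rest (upper panel) and after LPS (lower panel), for the 78 kappa segments that averaged at least 50 counts; bars are 95% exact intervals of counting error, and families 3 and 6 are coloured. Close to Jκ1 both families hold points well below 0 and points above it, with Igkv3-2 at -1.40 and -1.66.

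Igkv1-133, a distant member of family 1, showed the largest single difference and was also the one that the 2 count tables described most differently. Its gene counts were 192, 157, 387 and 992, so that its share in LPS-activated ΔleftPAL cells was 0.155%, against 0.668%, 1.24% and 1.43% in the other libraries. The log2 ratios of ΔIRIS over ΔleftPAL were 0.89 (0.64 to 1.15) at rest and 3.21 (2.96 to 3.46) after LPS. The estimated counts were 39.4, 146, 82.4 and 243, with 0.97 and 1.34, so that it was higher in ΔIRIS cells in both tables and by a smaller margin after LPS in the estimated counts.

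The tables could be compared in this way for every segment. Estimated counts per gene count had a highest value at least 1.5 times the lowest over the 4 libraries in 6 of 81 segments, and in 5 of these 6 the highest was in LPS-activated ΔleftPAL cells. For Igkv1-133 the quotients were 0.21, 0.93, 0.21 and 0.24, for Igkv3-12 0.60, 0.88, 0.47 and 0.38, and for Igkv6-14 0.57, 1.07, 0.60 and 0.50. The same library stood apart in each of these, as it did for Igkv3-1 (0.55, 0.89, 0.44 and 0.28) and Igkv3-7 (0.21, 0.39, 0.23 and 0.22). In 63 of 81 segments the highest quotient was under 1.2 times the lowest, and the median was 1.08. After LPS the genotype difference of Igkv3-1 was 0.55 on the log2 scale in the gene counts and -1.06 in the estimated counts. For the remaining one of the 6, Igkv4-58, the quotients were 0.48, 0.37, 0.29 and 0.32, highest in resting ΔleftPAL cells. The values of Igkv1-133, Igkv3-1, Igkv3-7, Igkv3-12, Igkv4-58 and Igkv6-14 are therefore uncertain, and the cause of the mismatch was not tested.

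**Figure D5:**
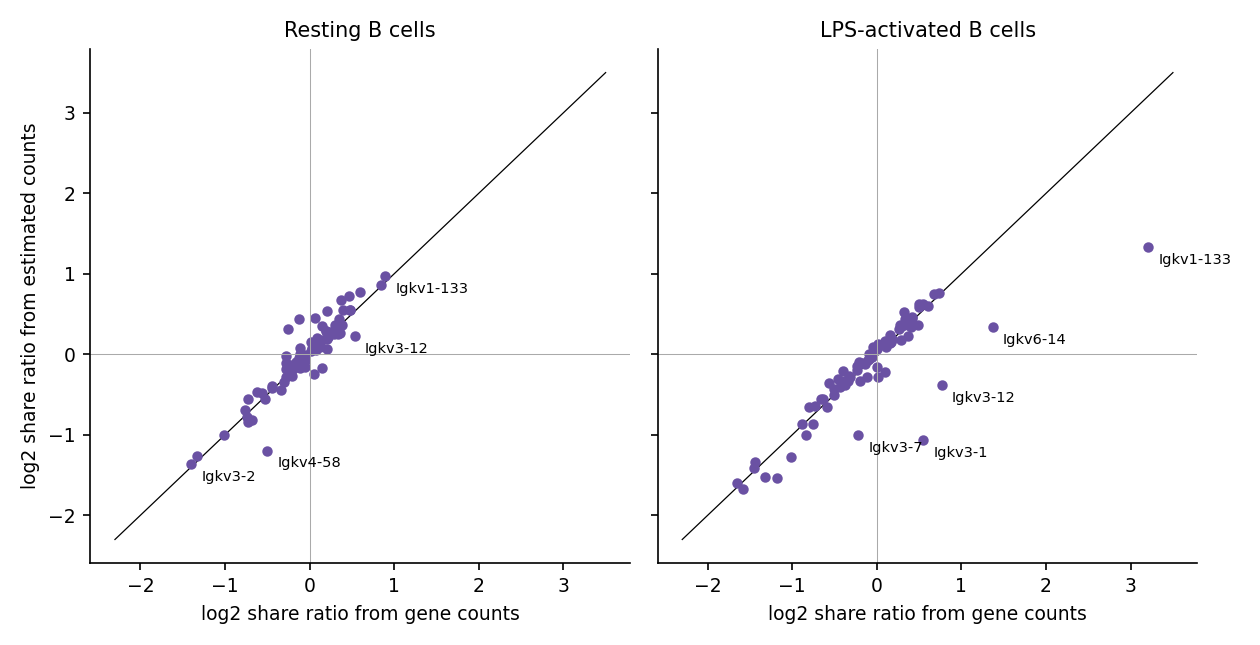
Log2 ratio of the share of light chain V counts in ΔIRIS over ΔleftPAL cells from the gene counts (x axis) and from the kallisto estimated counts summed per gene (y axis), at rest and after LPS, 1 point per segment, with the line of equal values. Most segments lie on the line, and after LPS Igkv1-133 (3.21 against 1.34) and Igkv3-12 (0.77 against -0.39) lie below it.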

How the data were processed

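RNA was measured in 4 libraries, 1 per genotype and state, grouped by the labels. The labels describe each sample as cells pooled from 4 animals, while the study's text describes the pooling differently. The libraries were made from ribosome-depleted total RNA with a stranded kit and read as pairs of 150 nt.

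The authors mapped the reads with STAR 2.4.0a to mm10 (GRCm38) with the Ensembl 77 gene model and deposited, for each gene name, the fragment counts that featureCounts (Subread 1.4.6-p1) gave, without normalization. Per the file headers, fragments with several mappings were counted at their primary alignment, counting used strand, and fragments overlapping 2 genes were not counted. The authors also deposited kallisto 0.42.3 estimated counts per transcript and TPM from the same runs, which were summed per gene name here. A row without a gene name (0.00876% to 0.0264% of counts) was left out.

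Shares of light chain V counts, CPM with TMM factors (edgeR 4.0.16 in R 4.3.3) and ratios of shares with exact Clopper-Pearson intervals were computed in Python 3.11.15 with scipy 1.17.1. PCR copies are not independent molecules, so the intervals cover counting error only. With 1 library per group the conditions were not tested, and no p-value was computed. Segments with a mean of at least 50 counts entered the ratios. The calculation was tested on simulated data. Sequences and gene types came from GENCODE M21, whose gene identifiers were those of the deposited tables for 102 of 107 members.

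The text names the 12 segments with the highest mean share, the lambda segments, the 5 largest differences in each direction of each comparison with at least 50 counts in the higher library, and the constant, joining and recombination genes, of which 14 of 19 were in the gene table. Igkv6-17 and the neighbours of these segments were named after their values were seen. The members and lists were chosen with earlier results of these data known. The alternatives were scaling by total counts, by the size factors of DESeq2 1.42.0, by TMM without immunoglobulin genes or by Gapdh counts, both kallisto tables, minimum means of 10 or 200 or none, kappa segments alone and the omission of Iglv1. The comparison of blocks of the kappa array was not among the planned results. Merging of similar segments, leaving out families 3 and 6 or Igkv6-15, and both kallisto tables for the J-proximal block and for single segments were added after seeing the data.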

Additional observations from a re-analysis of the deposited data

Results flagged for a closer look

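The following values had opposite directions in the 2 comparisons of one kind, with both counting intervals clear of 0. The differences themselves were not tested, since there is 1 library per group, and each is given as the second log2 ratio minus the first.

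For LPS over resting in ΔleftPAL and then ΔIRIS cells, the lambda share had log2 ratios of -0.19 and 0.20, a difference of 0.39. The third block of 26 segments in the kappa array, from Igkv4-63 to Igkv6-32, differed by -0.29 (0.10 and -0.19), family 2 by 0.27 (-0.11 and 0.15) and family 12 by -0.64 (0.11 and -0.53). Among single segments, Igkv1-133 differed by 2.31 (-2.11 and 0.21), Igkv3-5 by -0.99 (0.44 and -0.55), Igkv12-44 by -0.48 (0.32 and -0.15) and Igkv6-15 by -0.45 (0.27 and -0.19). In the estimated counts the first value of Igkv1-133 was 0.079 and thus of the other sign.

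For ΔIRIS over ΔleftPAL cells at rest and then after LPS, the lambda share differed by 0.39 (-0.09 and 0.30), the second block of the array by 0.22 (-0.06 and 0.16), the third block by -0.29 (0.06 and -0.23), family 12 by -0.64 (0.38 and -0.26), family 17 by -0.41 (0.20 and -0.20) and family 19, which is Igkv19-93, by 0.45 of kappa V counts (-0.24 and 0.21). As a share of all light chain V counts Igkv19-93 differed by 0.38 (-0.23 and 0.16). Igkv12-46 differed by -1.19 (0.85 and -0.35), Igkv5-39 by -0.67 (0.29 and -0.38), Igkv3-7 by -0.62 (0.40 and -0.22), Igkv12-44 by -0.48 (0.30 and -0.18) and Iglv1 by 0.45 (-0.08 and 0.37). With similar segments added in the gene counts, the opposite directions were lost for Igkv3-7 with Igkv3-12 (0.49 and 0.44). They were also lost for Igkv12-44 with Igkv12-41 at rest (0.085, interval -0.046 to 0.217, and -0.37 after LPS) and for Iglv1 with Iglv2 at rest (-0.018, interval -0.090 to 0.053, and 0.42 after LPS). In the estimated counts Igkv3-7 with Igkv3-12 held 0.883%, 1.43%, 1.07% and 1.00% of V counts, so there the directions stayed opposite. Since both kinds of comparison use the same 4 libraries, an item that appears in both paragraphs is 1 pattern seen from 2 sides.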

How the results depend on the processing

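The libraries have no replicates and their labels no replicate numbers. No paired analysis was possible because no number pairs the libraries across groups. Depth limits the segments under 50 counts, whose ratios were not read, and which make up the larger counts without a minimum. A value was called moved when it left its counting interval, or when a count changed by more than 1.5 times, and the causes of the moves were not tested.

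The log2 ratio of the summed V level turned its sign under Gapdh scaling, to -0.97 (ΔleftPAL) and -1.85 (ΔIRIS) after LPS and to 0.039 between genotypes at rest, and was -0.84 between the LPS libraries. In ΔleftPAL cells it was 1.58 with total counts, 1.64 with DESeq2 size factors, 1.59 with estimated counts and 1.39 with TPM, and in ΔIRIS cells 1.10, 1.11, 0.95 and 0.86. Between genotypes at rest it was -0.16 with total counts, -0.17 with estimated counts and -0.24 with TPM, and after LPS -0.65 with total counts and with DESeq2, -0.69 with TMM without immunoglobulin genes, -0.81 with estimated counts and -0.78 with TPM. The lambda share was 19.2%, 15.6%, 17.4% and 19.3% in estimated counts and 18.5%, 15.2%, 16.8% and 19.0% in TPM. The inverse Simpson index stayed within 1.5 times its value in all 16 alternatives, at 30.0, 29.1, 30.3 and 22.3 in estimated counts, where resting ΔIRIS cells took the highest place from resting ΔleftPAL cells.

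The number of segments at least 2-fold apart after LPS in ΔleftPAL cells was 2 in each kallisto table and with similar segments merged, 5 with a minimum mean of 10, 9 with none and 73 in CPM. In ΔIRIS cells it was 9 and 14 with a minimum of 10 and none, 2 with a minimum of 200 and 43 in CPM. Between genotypes at rest it was 7 and 13 with a minimum of 10 and none, and after LPS 18 with none, 25 in CPM and 5 with similar segments merged. The usage distance was 11.4% in estimated counts, 11.6% in TPM, 11.3% for kappa alone and 11.8% without Iglv1 in ΔleftPAL cells, 12.9%, 13.2% and, without Iglv1, 11.8% in ΔIRIS cells, 10.2% at rest for kappa alone and without Iglv1, and 12.8% and 12.9% in the kallisto tables between the LPS libraries.

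The log2 ratio of the J-proximal block after LPS was 0.19 in estimated counts, 0.20 in TPM and 0.23 without families 3 and 6 in ΔleftPAL cells, and 0.053 in estimated counts, 0.17 without family 3 and 0.35 without families 3 and 6 in ΔIRIS cells. Between genotypes it was -0.30, -0.29 and, without both families, -0.14 at rest, and after LPS -0.44 in estimated counts, -0.41 in TPM, -0.15 without family 3, -0.011 without both and -0.14 without Igkv6-15. Of 96 alternatives for single segments, 68 stayed, 22 moved and 6 changed sign. These were, after LPS in ΔleftPAL cells, Igkv1-133 at 0.079 and 0.085 and Igkv6-14 at 0.038 and 0.045 in estimated counts and TPM, and, between the LPS libraries, Igkv3-12 at -0.39 and -0.38.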
